A study of Mus musculus with 6 samples.

Results

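Genes of transepithelial calcium handling were examined in the epithelium of the early pregnant mouse uterus. The set held every probe set annotated to 9 genes: the calcium channels Trpv6 and Trpv5, the cytosolic calcium-binding proteins Calb1, Calb2 and S100g, the calcium extruders Atp2b1 and Slc8a1, and the vitamin D genes Vdr and Cyp24a1. In the annotation used, 8 of the 9 genes had probe sets, 18 in all, among 34945 probe sets of 18193 genes that carried a single gene symbol. Trpv5 was not analysed here.

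Epithelium was compared in 3 groups of 2 arrays each. The first group was Sox17-heterozygous mutants (Sox17GFP/+, with GFP at 1 Sox17 allele) on day 4 of pregnancy (arrays 253 and 281), the next was wild-type mice on day 4 (arrays 277 and 284), and the last was wild-type mice on day 1 (arrays 302 and 303). Day 1 was the day of the vaginal plug. Sox17 encodes a transcription factor of the SOX family, the allele was carried in the whole animal, and ages and strains were not given in the labels. The labels do not say that the arrays of a group came from separate animals, so p-values measure the spread between these samples, which may be technical.

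Epithelia carry calcium across themselves in steps. Calcium enters at the apical membrane through TRPV6 or TRPV5, is bound in the cytosol by calbindins, and leaves at the basolateral membrane through plasma membrane calcium pumps such as ATP2B1 and sodium-calcium exchangers such as SLC8A1. In the intestine and kidney active vitamin D drives these genes through its receptor VDR, and CYP24A1 breaks the hormone down. In the mouse uterus Trpv6 is known as an oestrogen-responsive gene and Calb1 as a marker of the luminal epithelium before implantation.

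Sox17 itself was checked first. Its brighter probe set had signals of 30189 and 28810 in heterozygous epithelium, 34794 and 35060 in WT day 4 epithelium, and 7738 and 8671 in WT day 1 epithelium. The dimmer one had 13304 and 13061 in heterozygous, 22781 and 18473 in WT day 4 and 2394 and 2478 in WT day 1 epithelium. Heterozygous signals lay below both WT day 4 signals at each probe set, but neither difference passed the test (limma, adjusted p = 0.654 and 0.407). A signal here is a linear array intensity that the authors scaled to a trimmed mean of 500 on every array. Array 277 stood apart from the rest: its median signal was 138, against 66.2 to 78.0 on the other 5, and 27.0% of its probe sets were below 50, against 41.6% to 44.6%. Without detection calls, signals under 50 were read as low.

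The preparations carried epithelial markers at high signal, and markers of other cells varied with the groups. The summed signal of 5 epithelial markers (Epcam, Cdh1 and 3 keratins) was 106711 to 108589 in heterozygous, 93349 to 106617 in WT day 4 and 111747 to 117751 in WT day 1 epithelium. The luminal genes Lpar3 and Wnt7a together gave 8255 to 8542 in heterozygous, 12844 to 14276 in WT day 4 and 1090 to 1427 in WT day 1 epithelium. For 5 glandular markers the sums were 446 to 649 in heterozygous, 276 to 726 in WT day 4 and 434 to 1171 in WT day 1 epithelium, and Foxa2, a gland factor, lay between 31.1 and 220 on all arrays. Stromal markers (8 genes) summed to 449 to 846 in heterozygous, 1594 to 2775 in WT day 4 and 3478 to 8902 in WT day 1 epithelium. Macrophage markers (6 genes) summed to 1413 to 1537 in heterozygous, 1667 to 2778 in WT day 4 and 6357 to 6844 in WT day 1 epithelium. Cd68 alone set that order, at 308 and 167 in heterozygous, 224 and 157 in WT day 4 and 6401 and 5746 in WT day 1 epithelium. Without it the other 5 summed to 1229 to 1246 in heterozygous, 1510 to 2554 in WT day 4 and 443 to 611 in WT day 1 epithelium. In WT day 4 against WT day 1, 2 of the 6 (Lyz2 and C1qa) were higher and 1 (Cd68) lower at an adjusted p under 0.05, beside 0 of the 8 stromal markers. With an intensity trend in limma's variance prior, an alternative setting, 3 of the 8 stromal markers were lower at that threshold. In heterozygous epithelium that setting had 5 of the 8 lower than in WT day 1 and 1 lower than in WT day 4 epithelium. Summed smooth muscle markers (6 genes) were 172 to 190 in heterozygous, 309 to 392 in WT day 4 and 891 to 893 in WT day 1 epithelium. Ovgp1, an oviduct secretion gene, had 20932 and 10977 in heterozygous, 5497 and 7309 in WT day 4 and 165 and 288 in WT day 1 epithelium, while Foxj1 of oviduct cilia was at 45.4 or less throughout. Mesothelial, endothelial, lymphocyte, erythrocyte and nerve markers summed to 877 or less per list on every array. The part of these cell types in the results below was not tested, and in bulk RNA a smaller number of cells of a type and less RNA per cell cannot be told apart.

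Between day 1 and day 4 the calcium genes went opposite ways: the entry channel Trpv6 fell and the buffers Calb1 and S100g rose. Of the 18 probe sets, 5 were called higher (4 of Calb1 and the 1 of S100g) and 1 lower (Trpv6) in WT day 4 epithelium, and 12 were not called. Called means an adjusted p under 0.05 in limma, fitted on log2(signal + 1) over all 6 arrays and adjusted over all 34945 probe sets. Among all probe sets, 5.04% were called higher (1761) and 4.15% lower (1449), or 941 higher and 1256 lower after each array was centred on its median. The members' median log2 difference was 1.47, beside 0.24 over all probe sets, and after centring these were 1.25 and 0.03. The 9 probe sets of Calb1, S100g, Trpv6 and Atp2b1 had a median of 3.71, and 4 of them were of Calb1. The 9 of Calb2, Vdr, Cyp24a1 and Slc8a1 had a median of 1.35, but most of their signals were below 50 and none was called.

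Entry channel. Trpv6 had signals of 316 and 209 in heterozygous epithelium, 481 and 465 in WT day 4 epithelium, and 17632 and 16738 in WT day 1 epithelium. Every day 4 array lay far below both day 1 arrays. The log2 difference of WT day 4 minus WT day 1 was -5.18 ± 0.29 (SE, adjusted p = 0.00805), so that the WT day 1 mean was 36.3 times the WT day 4 mean. For heterozygous day 4 minus WT day 1 it was -6.06 ± 0.29 (adjusted p = 0.00897).

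Cytosolic buffers. Calb1, which encodes a high-affinity EF-hand calcium-binding protein, had 4 probe sets. The brightest had signals of 39895 and 39316 in heterozygous, 65174 and 51482 in WT day 4, and 1545 and 1828 in WT day 1 epithelium. On array 284 it was the brightest probe set of all, and saturation was not tested. Its log2 difference was 5.11 ± 0.25 for WT day 4 minus WT day 1 (34.6-fold in mean signal, adjusted p = 0.00708) and 4.56 ± 0.25 for heterozygous minus WT day 1 (adjusted p = 0.00977).

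The other 3 Calb1 probe sets followed the same order of days. Probe set 1456934_at had 6318 and 7320 in heterozygous, 6616 and 10602 in WT day 4, and 98.3 and 100.5 in WT day 1 epithelium, a day difference of 6.38 ± 0.32. Probe set 1448738_at had 3659 and 3858 in heterozygous, 3147 and 5393 in WT day 4, and 84.4 and 65.9 in WT day 1 epithelium, a day difference of 5.77 ± 0.35. Probe set 1458836_at was the dimmest, at 195 and 192 in heterozygous, 797 and 649 in WT day 4, and 39.9 and 46.1 in WT day 1 epithelium, a day difference of 4.04 ± 0.24. The limma adjusted p-values of all Calb1 probe sets for WT day 4 against WT day 1 were between 0.00708 and 0.00820.

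S100g encodes calbindin-D9k, the small EF-hand calcium carrier of the intestine. Its signals were 32823 and 31071 in heterozygous, 33259 and 39885 in WT day 4, and 1784 and 4364 in WT day 1 epithelium. Its 4 day 4 signals were well above day 1, and the day 1 arrays differed most from each other on the log2 scale (SD 0.06 in heterozygous, 0.19 in WT day 4 and 0.91 in WT day 1 epithelium). The log2 difference was 3.71 ± 0.49 for WT day 4 minus WT day 1 (11.9-fold in mean signal, adjusted p = 0.0236) and 3.52 ± 0.49 for heterozygous minus WT day 1 (adjusted p = 0.0326). Calb2, the calretinin gene, stayed dim at 27.5 and 69.2 in heterozygous, 148 and 51.9 in WT day 4, and 47.8 and 11.4 in WT day 1 epithelium. Its day difference of 1.85 ± 0.95 was not called (adjusted p = 0.302).

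**Figure D1:**
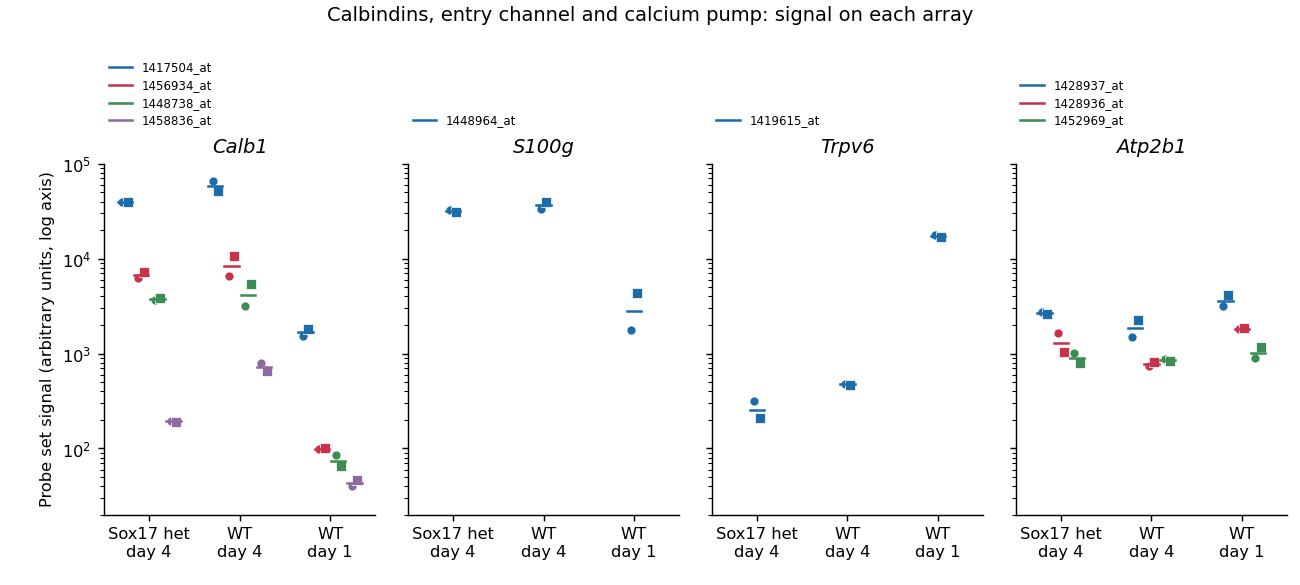
Signals of the brighter members on each array, on a log axis, for heterozygous day 4, WT day 4 and WT day 1 epithelium; circles and squares are the 2 arrays of a group and bars are group means of log2(signal + 1) turned back to signal. Trpv6 is high only in WT day 1 epithelium, at 17632 and 16738, while Calb1 and S100g are high in both day 4 groups and the Atp2b1 probe sets stay between 731 and 4122.

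The promoter windows of S100g and Trpv6 are shown because these 2 genes changed in opposite directions between the days. Each runs from 250 bases before the RefSeq start to 50 after it (GRCm38.p6), 5′ to 3′ on the minus strand, with AGGTCA, the half-site shared by many nuclear receptors, and its reverse complement TGACCT in capitals. The S100g window lies at chrX:162964550-162964849 and the Trpv6 window at chr6:41636356-41636655.
S100g: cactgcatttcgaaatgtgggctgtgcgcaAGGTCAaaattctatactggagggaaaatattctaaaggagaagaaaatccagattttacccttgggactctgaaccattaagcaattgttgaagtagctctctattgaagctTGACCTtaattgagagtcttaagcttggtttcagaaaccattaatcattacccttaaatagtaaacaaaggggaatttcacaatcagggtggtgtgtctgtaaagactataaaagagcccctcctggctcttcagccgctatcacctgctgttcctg
Trpv6: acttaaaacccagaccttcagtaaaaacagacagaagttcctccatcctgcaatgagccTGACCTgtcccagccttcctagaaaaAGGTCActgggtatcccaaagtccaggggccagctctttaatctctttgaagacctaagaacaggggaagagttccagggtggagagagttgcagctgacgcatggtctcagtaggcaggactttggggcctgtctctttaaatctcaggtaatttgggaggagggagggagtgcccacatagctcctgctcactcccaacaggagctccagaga
Each window held AGGTCA on the sense strand and TGACCT once. In S100g they began 220 and 107 bases before the start, and in Trpv6 165 and 191 bases before it. Of 32851 promoter windows of this length, 16.3% held AGGTCA in either orientation and 1.81% held at least 2 matches. Further searches, on both strands, were for ACAAT, a core of SOX binding sites found in 31% of windows, and TGTTCT, a half-site of progesterone and glucocorticoid receptors found in 19%. S100g had ACAAT at 28 and its reverse complement ATTGT at 135 bases before the start, and Trpv6 had AGAACA, the reverse complement of TGTTCT, at 108 bases before it. These are letter matches, not shown binding sites. RefSeq windows were matched for 6 of the 9 genes, and none was available for Calb1, Calb2 and Cyp24a1. The windows of Atp2b1, Slc8a1, Trpv5 and Vdr, not printed here, held no AGGTCA in either orientation.

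Extruders. Atp2b1, a plasma membrane calcium pump, had 3 probe sets. The brightest had 2737 and 2598 in heterozygous, 1502 and 2271 in WT day 4, and 3155 and 4122 in WT day 1 epithelium, and probe set 1428936_at had 1630 and 1032 in heterozygous, 731 and 821 in WT day 4, and 1804 and 1841 in WT day 1 epithelium. At both, the heterozygous arrays lay between the WT day 4 and the WT day 1 arrays. The WT day 4 minus WT day 1 difference was -0.97 ± 0.32 and -1.23 ± 0.31 (adjusted p = 0.145 and 0.0854), which was not called. With an intensity trend in the variance prior of limma, an alternative setting, both were called lower on day 4 (adjusted p = 0.00668 and 0.00165). The dimmest, probe set 1452969_at, had 1024 and 802 in heterozygous, 883 and 832 in WT day 4, and 888 and 1170 in WT day 1 epithelium, a day difference of -0.25 ± 0.27 that was not called by either fit. With that trend 11.1% of all probe sets were called higher and 9.64% lower on day 4, and the members called were 5 higher and 3 lower.

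Slc8a1, the sodium-calcium exchanger best known from heart muscle, was dim: its 4 probe sets ranged from 1.85 to 92.9, and 21 of 24 values were below 50. The log2 day differences of its probe sets ran from -1.26 to 3.23 with both signs, and none was called in the default fit of all 6 arrays. Probe set 1437675_at, at 5.27 and 4.91 in heterozygous, 26.8 and 7.71 in WT day 4, and 37.0 and 35.7 in WT day 1 epithelium, was called lower in WT day 4 epithelium without array 277 (adjusted p = 0.0392) or after quantile normalization (0.0237). Against WT day 1 it was called lower in heterozygous epithelium without array 277 or 284 (0.0267), after centring and after quantile normalization (0.0176). The default fit of all arrays did not call it, at a log2 difference of -2.62 ± 0.60 (adjusted p = 0.0859).

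Vitamin D genes. The 2 Vdr probe sets ranged from 0.991 to 27.4, with 12 of 12 values below 50. Cyp24a1, whose product inactivates vitamin D, ranged from 5.01 to 95.1 over 2 probe sets, with 10 of 12 values below 50. No Vdr or Cyp24a1 probe set was called in any comparison.

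**Figure D2:**
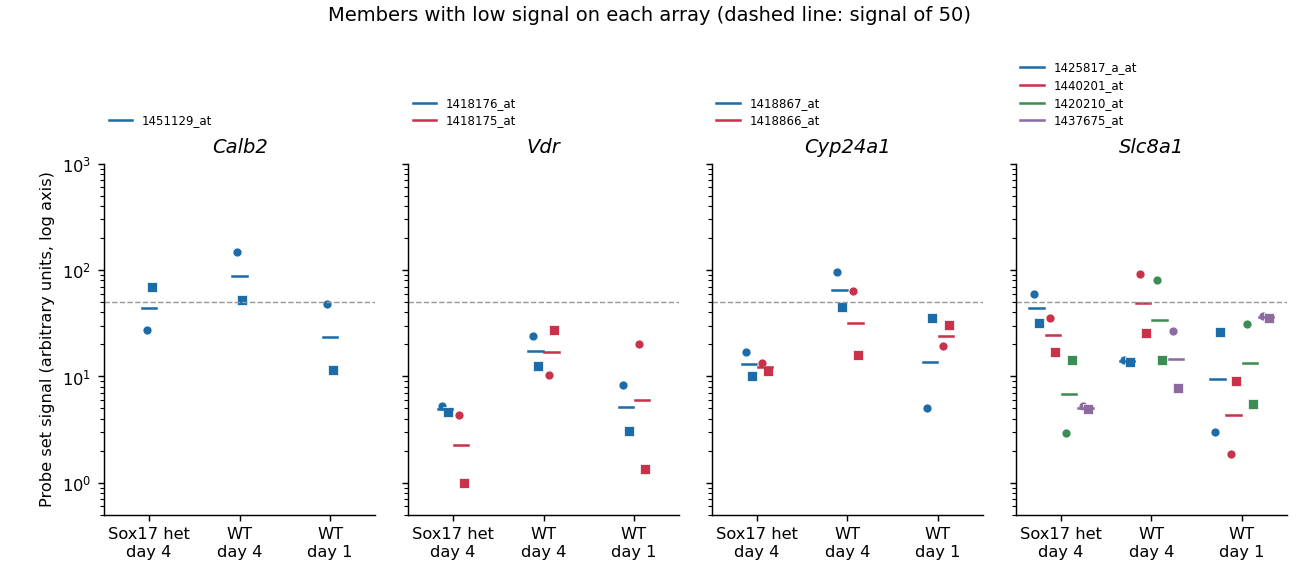
Signals of the dim members Calb2, Vdr, Cyp24a1 and Slc8a1 on each array, on a log axis, for heterozygous day 4, WT day 4 and WT day 1 epithelium; each column of points is a probe set. Most values lie below the signal of 50 read as low, and the 2 arrays of a group often differ as much as the groups do.

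The calls between days rested on few arrays. In limma's default fit, leaving out either day 1 array or either heterozygous array ended all 6 member calls for WT day 4 against WT day 1, and 0 of all 34945 probe sets were then called. The adjusted p-values of the 6 were then between 0.0544 and 0.0996. Without array 277 or 284, the 4 Calb1 probe sets and Trpv6 were still called and S100g was not (0.0642 and 0.0600). With the intensity trend all 6 stayed called without any single array, the highest adjusted p being 0.00153 for S100g. The log2 differences of Calb1 and S100g kept their sign without each array, that of S100g between 3.06 and 4.35, and that of Trpv6 lay between -5.22 and -5.14.

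**Figure D3:**
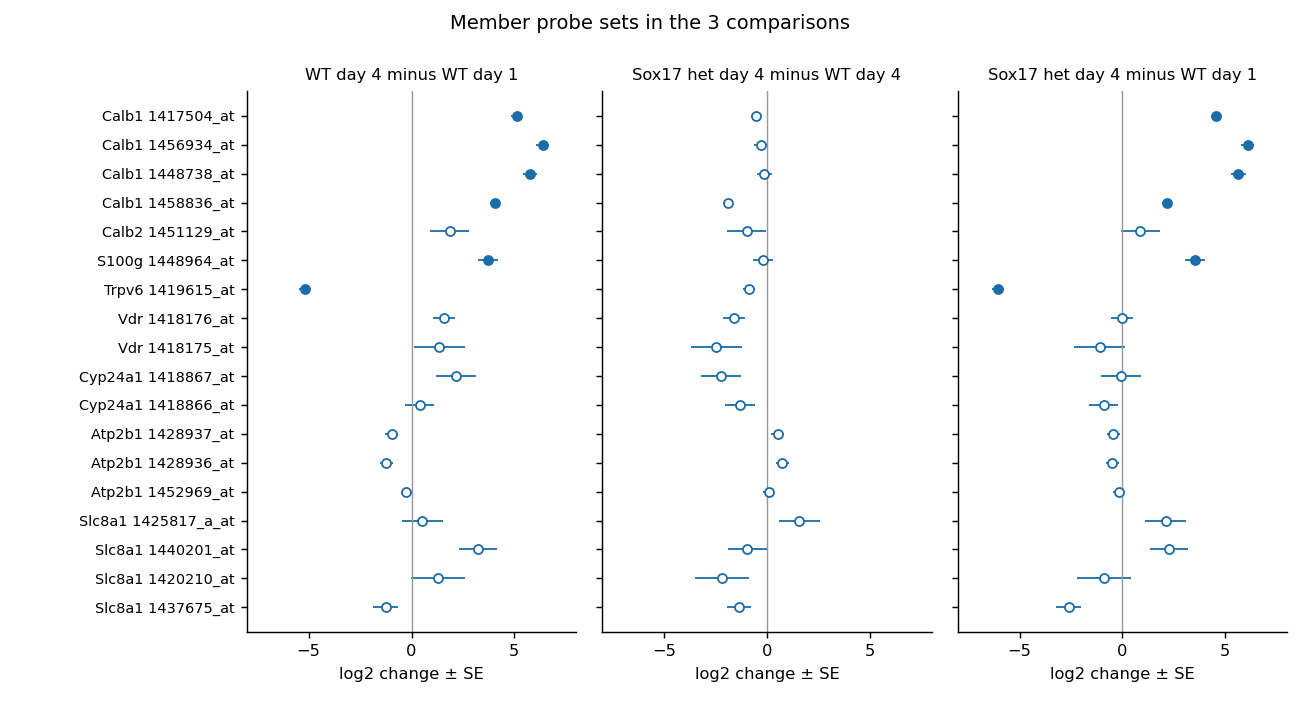
Log2 differences of every member probe set with standard errors of limma's default fit, for heterozygous minus WT day 4, WT day 4 minus WT day 1 and heterozygous minus WT day 1; filled points have an adjusted p under 0.05 in that fit. Calb1 and S100g lie right of 0 and Trpv6 left of it against WT day 1, and no point is filled for heterozygous against WT day 4.

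Against WT day 1, the heterozygous day 4 epithelium had 5 member probe sets called higher (Calb1 and S100g) and 1 lower (Trpv6), beside 3.18% of all probe sets called higher and 2.89% lower. This comparison shares its day 1 arrays with the previous one, so it is not independent of it. Without either day 1 or either heterozygous array it made no member call in the default fit, the 6 adjusted p-values then lying between 0.0942 and 0.197, and without array 277 or 284 the S100g call was lost (0.0523 for each). All 6 were called with the intensity trend without any single array, the highest adjusted p being 0.0220 for Calb1 probe set 1458836_at. Atp2b1 differences were -0.44, -0.49 and -0.17 and none was called.

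Between genotypes on day 4, no member was called in the default fit. Of all 34945 probe sets 0 were called (0%, smallest adjusted p = 0.192), while 4186 had an unadjusted p under 0.05, among them 3 member probe sets (Calb1 1458836_at, Trpv6 and Vdr 1418176_at). The members' median log2 difference of heterozygous minus WT day 4 was -0.92, beside -0.18 over all probe sets, and after centring these were -0.65 and 0.09. The 9 probe sets of the dim genes Calb2, Vdr, Cyp24a1 and Slc8a1 had a median of -1.36, and the 9 of Calb1, S100g, Trpv6 and Atp2b1 one of -0.19. After centring these 2 medians were -1.08 and 0.08. Most signals of the dim genes were below 50. At each of their probe sets except Vdr 1418175_at, WT day 4 array 277 lay above array 284, and the part of array 277 in their median was not tested. The intensity trend gave 1.34% called higher (468) and 1.03% called lower (361), or 154 and 44 after centring, and 1 member probe set, of Calb1, called lower.

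That probe set, 1458836_at, had 195 and 192 in heterozygous against 797 and 649 in WT day 4 epithelium, a ratio of means of 0.268. The log2 difference was -1.89 ± 0.24, with an adjusted p of 0.196 in the default fit and 0.0202 with the trend. The trend call was lost after centring (0.140) and without array 277, 253 or 281 (0.0677, 0.244 and 0.183). The other 3 Calb1 probe sets showed smaller differences. The brightest, at 39895 and 39316 in heterozygous against 65174 and 51482 in WT day 4 epithelium, had a log2 difference of -0.55 ± 0.25 (adjusted p = 0.465, and 0.173 with the trend). Probe set 1456934_at gave -0.30 ± 0.32, and 1448738_at gave -0.13 ± 0.35, or 0.14 after centring, and at both the genotypes overlapped. Whether the probe sets differed from each other was not tested.

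S100g signals of the genotypes lay close, at 32823 and 31071 in heterozygous against 33259 and 39885 in WT day 4 epithelium. Its log2 difference of -0.19 ± 0.49 was not called (adjusted p = 0.879) and was 0.08 after centring and 0.03 after quantile normalization. Trpv6 had 316 and 209 in heterozygous against 481 and 465 in WT day 4 epithelium, so both heterozygous arrays were lower. The difference of -0.88 ± 0.29, or -0.60 after centring, was not called (adjusted p = 0.378, and 0.0517 with the trend). Both brighter Atp2b1 probe sets were higher on the heterozygous arrays, by 0.53 ± 0.32 and 0.74 ± 0.31. Neither was called (adjusted p = 0.535 and 0.444, and 0.252 and 0.118 with the trend). Without array 284 the trend fit called Calb1's brightest probe set lower (0.0456) and Atp2b1's brightest higher (0.0484). A p above the threshold does not show that the genotypes were alike, since 2 arrays a group gave standard errors of 0.24 to 0.49 on the log2 scale for the probe sets of Calb1, S100g, Trpv6 and Atp2b1.

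For each called member, the 3 genes with the nearest pattern over the 6 arrays were found as the root mean square difference of mean-subtracted log2 values. Calb1 lay nearest to Haus8 (0.18), Sybu (0.21) and Hspb8 (0.24). S100g lay nearest to Ncaph (0.09), Hdc (0.18), the histidine decarboxylase gene, and Mt1 (0.21), a metallothionein. Hdc had 22351 and 21708 in heterozygous, 27511 and 26568 in WT day 4 and 1384 and 2426 in WT day 1 epithelium. Trpv6 lay nearest to Alpl (0.19), the tissue-nonspecific alkaline phosphatase, Cpne2 (0.28) and Serpina9 (0.29). Alpl had 106 and 78.1 in heterozygous, 200.3 and 145 in WT day 4 and 6550 and 7760 in WT day 1 epithelium. These distances rest on 6 arrays in 3 groups and describe likeness of pattern only.

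Beyond the members, 7 lists of calcium genes held 146 genes, of which 128 were measured by 258 probe sets. On WT day 4 against WT day 1, the default fit called 27 of these probe sets (10.5%) higher and 16 (6.20%) lower, beside 5.04% and 4.15% of all probe sets. With the intensity trend 45 (17.4%) were called higher and 50 (19.4%) lower, beside 11.1% and 9.64%, so the excess of higher calls was not kept. The counts by list below are of the default fit unless the trend is named. The list of plasma membrane pumps and exchangers other than the members had 8 of 21 probe sets called higher and 0 lower. The 8 came from the 3 genes Atp2b2, Atp1b1 and Slc24a4, and the median difference of the list was 1.33. Of these 8, 4 were of Atp1b1, a subunit of the sodium pump and not of a calcium pump. The list also held Slc8b1, a mitochondrial exchanger gene. It differed by -1.78 ± 0.36, not called in the default fit (adjusted p = 0.0546) and called lower with the trend (0.00153). The list of entry channels, which also held Stim1 and Stim2, sensors of store-operated entry, had 2 of 38 probe sets higher and 5 lower (median -0.43). Stim1 was among the higher and Stim2 among the lower. Mitochondrial uptake genes had 0 of 12 called in the default fit and 1 with the trend. Store genes of the endoplasmic reticulum and Golgi had 5 of 54 higher, all of Itpr2, and 5 lower (median 0.08). Vitamin D and calciotropic hormone genes had 3 of 39 higher and 2 lower, TRPV5 and TRPV6 partners 4 of 49 higher and 1 lower, and other EF-hand genes 5 of 47 higher and 3 lower (medians 0.21, -0.04 and 0.61). With the trend, higher and lower calls were 4 and 12 in the entry list and 10 and 15 in the store list. They were then 4 and 5 for hormone genes, 7 and 12 for TRPV5 and TRPV6 partners, and 11 and 5 for other EF-hand genes.

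Among these pumps and exchangers, Atp2b2, another plasma membrane calcium pump, rose at all 3 of its probe sets, by 3.01 to 3.28 on the log2 scale. Its probe set 1433888_at had 2564 and 2536 in heterozygous, 4243 and 4333 in WT day 4, and 342 and 571 in WT day 1 epithelium. Atp1b1, the beta subunit of the sodium pump, rose at 4 of 5 probe sets and had 28795 and 28100 in heterozygous, 25478 and 24798 in WT day 4, and 3468 and 4522 in WT day 1 epithelium at 1418453_a_at (2.67 ± 0.24, adjusted p = 0.0128). Slc24a4, a potassium-dependent sodium-calcium exchanger, had 60.3 and 51.9 in heterozygous, 1330 and 804 in WT day 4, and 4.44 and 10.01 in WT day 1 epithelium. Its day difference was 7.06 ± 0.47 (adjusted p = 0.00981), or 4.77 with a pseudocount of 32 in place of 1, because its day 1 signals are low.

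Among the entry genes, the 2 sensors of store-operated entry moved in opposite directions. Stim1 had 500 and 643 in heterozygous, 657 and 770 in WT day 4, and 102 and 112 in WT day 1 epithelium (2.72 ± 0.26, adjusted p = 0.0133). Stim2 had 1556 and 1495 in heterozygous, 1153 and 1454 in WT day 4, and 6036 and 5840 in WT day 1 epithelium (-2.20 ± 0.24, adjusted p = 0.0166). The second probe sets of Stim1 and Stim2 were not called. The mechanosensitive channel Piezo1 fell by 2.35 and the ATP-gated channel P2rx7 by 3.14, P2rx7 at 1 of 3 probe sets and by 2.17 with a pseudocount of 32; its call was lost without array 277 (0.0539).

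In the calcium stores, Itpr2, an inositol trisphosphate receptor that releases calcium from the endoplasmic reticulum, rose at 5 of 6 probe sets. At 1427287_s_at it had 4319 and 4519 in heterozygous, 8246 and 8254 in WT day 4, and 1108 and 1647 in WT day 1 epithelium (2.61 ± 0.28, adjusted p = 0.0166). The calcium-binding nucleobindins Nucb2 and Nucb1 fell by 3.82 and 2.31, and the secretory pathway calcium pump Atp2c2 by 1.88, a call lost after centring (-2.09, adjusted p = 0.0635). Nucb2 had 636 and 654 in heterozygous, 271 and 431 in WT day 4, and 4931 and 4721 in WT day 1 epithelium.

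Of the hormone-linked genes, Lrp2, megalin, an endocytic receptor that takes up vitamin D with its binding protein in the kidney, had the largest day difference named here. It had 12090 and 15145 in heterozygous, 13372 and 18257 in WT day 4, and 24.2 and 20.1 in WT day 1 epithelium (9.41 ± 0.29, adjusted p = 0.00677, and 8.18 with a pseudocount of 32). A second Lrp2 probe set rose by 9.25 and the dimmest was not called. The stanniocalcins, secreted regulators of calcium and phosphate in fish, were opposed. Stc1 had 1061 and 1338 in heterozygous, 2359 and 3583 in WT day 4, and 149 and 165 in WT day 1 epithelium (4.20 ± 0.31, adjusted p = 0.0106). Its other probe set was not called. Stc2 had 144 and 98.9 in heterozygous, 90.5 and 37.5 in WT day 4, and 1496 and 1975 in WT day 1 epithelium (-4.86 ± 0.51, adjusted p = 0.0160). Cyp27b1, which makes active vitamin D, ranged from 2.91 to 89.8 over the arrays and was not called.

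In the list of TRPV5 and TRPV6 partners, Cyb5r3, a cytochrome b5 reductase, rose at 3 of 4 probe sets, by 3.65 to 3.86. These were 3 of the 4 probe sets of that list called higher. Whether Cyb5r3 acts on these channels was not tested. The kinase gene Wnk4 rose by 2.35 ± 0.38, a call lost after centring (2.14, adjusted p = 0.116). S100a10, which with annexin A2 carries TRPV5 and TRPV6 to the membrane, fell at 1 of 3 probe sets by 1.44 ± 0.21, with 4547 and 4619 in heterozygous, 3018 and 2972 in WT day 4, and 8375 and 7878 in WT day 1 epithelium. That call was lost after centring (-1.65, adjusted p = 0.0878) and without array 277 (0.0580) or 284 (0.0513). Of other EF-hand genes, Efhd1 rose by 4.31, Caps2 by 2.96 and Efcab2 by 2.69, and Efhd2 fell by 2.67. Caps2 and Efcab2 each had another probe set, which was not called higher. Efhd1, Caps2 and Efcab2 were dim on day 1, and with a pseudocount of 32 they differed by 3.28, 2.15 and 1.71. Without array 277 none of these 3 was called (adjusted p = 0.0598, 0.0567 and 0.0694), and without 284 Efhd1 and Efcab2 were not (0.0655 and 0.0544).

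Between genotypes on day 4, 0 of the 258 list probe sets were called in the default fit, and with the intensity trend 7 (2.71%) were called higher and 4 (1.55%) lower, beside 1.34% and 1.03% of all probe sets. Sgk1, the kinase that raises surface abundance of epithelial channels and transporters, had 37541 and 30504 in heterozygous against 10783 and 8337 in WT day 4 epithelium, and 4099 and 4046 in WT day 1 epithelium. Its difference of 1.84 ± 0.26 had an adjusted p of 0.203 in the default fit and 0.000862 with the trend, stayed called in the trend fit without each array, and was not called after centring, where it was 2.11 (0.107). Slc24a4 was lower in the heterozygous epithelium, at 60.3 and 51.9 against 1330 and 804 (-4.18 ± 0.47, trend adjusted p = 0.00823, and 0.0151 after centring). Without array 277, 253 or 281 that call was lost (0.0522, 0.0833 and 0.0645).

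Further trend calls between genotypes were higher for Canx (1.10 ± 0.25), Hspa5 (0.94 ± 0.28), the ubiquitin ligase Nedd4 (0.96 ± 0.23), Efhd2 (1.25 ± 0.29) and Ncald (1.47 ± 0.41) in heterozygous epithelium, Canx at 2 of 3 probe sets, Efhd2 at 1 of 2 and the others at 1 of 3. Trend calls were lower for Itpr2 (-0.90 ± 0.28, at 1 of 6 probe sets), Stc1 (-1.29 ± 0.31, at 1 of 2) and Wnk4 (-1.27 ± 0.38). Canx and Hspa5 are chaperones of the endoplasmic reticulum that bind calcium. After centring none of these 8 stayed called (trend adjusted p between 0.0503 and 0.581), although the higher differences were then larger, at 1.37 for Canx, 1.22 for Hspa5, 1.24 for Nedd4, 1.52 for Efhd2 and 1.75 for Ncald. Itpr2, Stc1 and Wnk4 were then at -0.63, -1.01 and -0.99. None of the 8 was called in the default fit. The log2 differences above are on the log2(signal + 1) scale, where those of dim genes depend on the pseudocount. Levels of different genes were not compared.

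**Figure D4:**
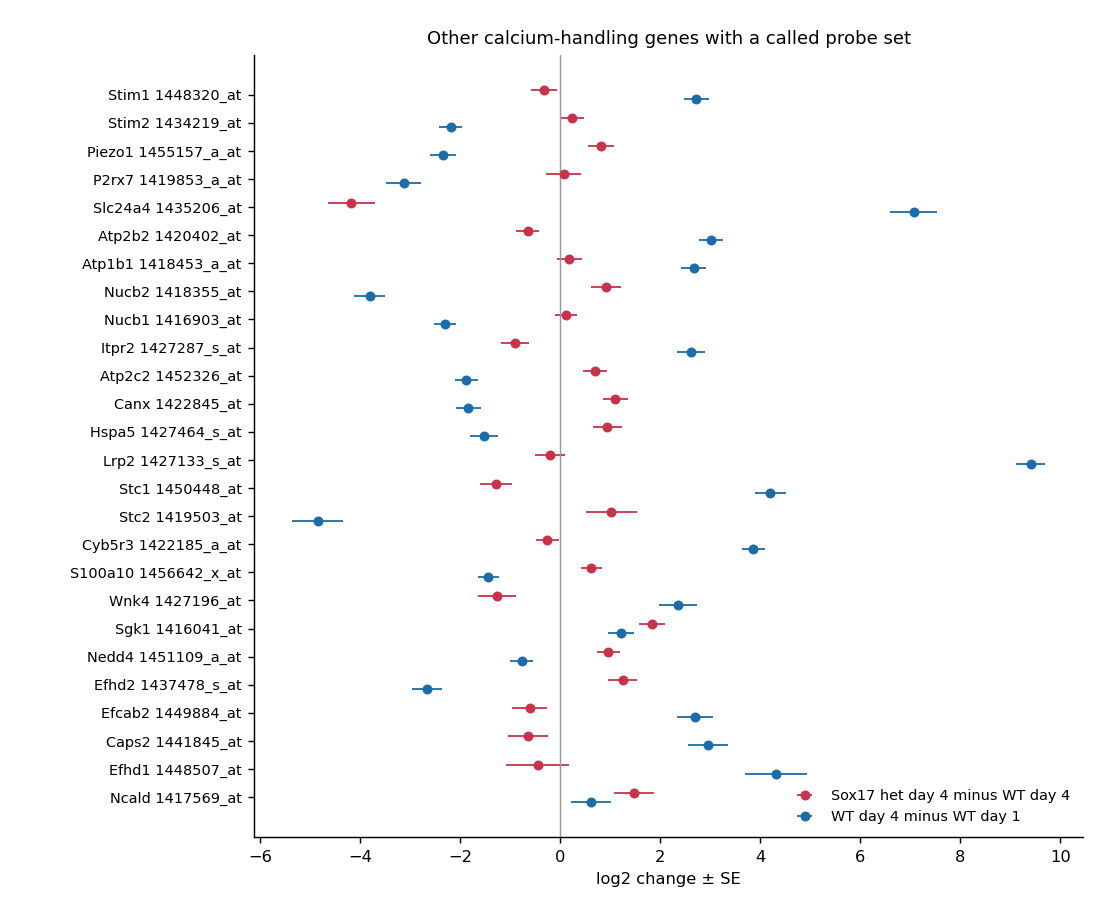
Log2 differences with standard errors for the named genes of the 7 calcium lists, in red for heterozygous minus WT day 4 and in blue for WT day 4 minus WT day 1. Lrp2 and Slc24a4 have the largest day differences, at 9.41 and 7.06, and between genotypes Sgk1 lies at 1.84 and Slc24a4 at -4.18.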

How the data were processed

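RNA of uterine epithelium, freed with pancreatin and dispase, was amplified, biotin-labelled and hybridised to Affymetrix 3′ arrays, 1 per sample, per the labels' protocols. The authors deposited 1 linear intensity per probe set and array, called its signal, with a trimmed mean of 500 on every array (2% trimmed at each end). Per the submitters' processing notes, Affymetrix Expression Console, Transcriptome Analysis Console and RMA were used; versions and roles are not given in the sources used here, and linear values of unequal quantiles are not the form of RMA output. No detection calls were used.

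Of 45101 probe sets, 34945 had a single symbol in the platform annotation (932 had several, 9160 none listed, 64 were controls). All 6 arrays were fitted on log2(signal + 1) with limma 3.58.1 (R 4.3.3), a coefficient per group and 3 residual degrees of freedom. eBayes at default settings was the main test, with Benjamini-Hochberg adjustment over all probe sets at 0.05. An intensity trend, other scalings, a pseudocount of 32, filters and leaving out arrays were tried. Errors after ± are standard errors of the default fit, also beside a trend p-value. The fits were run on simulated data whose spread was drawn from the fitted intensity trend. That run cannot show which fit suits these data. The number of arrays limits the precision.

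Members and gene lists were chosen with earlier results of these data known. Named list genes were the 4 or fewer with the smallest p per list and comparison among those called, by the trend fit between genotypes, where the default fit called none. Trend fits combined with another alternative were chosen after seeing the data. Promoters are from RefSeq (GRCm38.p6).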

Additional observations from a re-analysis of the deposited data

How the results depend on the processing

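For WT day 4 against WT day 1, the default fit called 3210 probe sets, and 5392 with a pseudocount of 32, 5627 without the dimmest probe sets, 7249 with the intensity trend, 5763 at an adjusted p under 0.10 and 0 with only the 4 arrays of these groups (7417 at an unadjusted p under 0.05). Leaving out an array gave 0 to 3142, with 0 to 6 member calls against 6; where 0 were called, limma's intensity trend on the same arrays called 4699 to 6021. With the 4 arrays alone 0 members were called, and with 1 probe set per gene 3, since that leaves Calb1 only 1. For heterozygous against WT day 1 the 2122 calls became 4161, 4357, 5988 and 4181 with pseudocount 32, without the dimmest probe sets, with the trend and at 0.10, and 0 to 2632 without an array, with 0 to 6 members and 3 with 1 probe set per gene. Between genotypes the trend called 829 probe sets and 1 member where the default called 0, with 198 and 0 after centring, and 131 to 2083 (307 without array 281) and 0 to 3 without an array. The cause of these changes was not tested. No paired analysis was possible because the groups share no replicate numbers.

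Calb1, S100g and Trpv6 kept their sign against WT day 1 under every alternative run. Directions turned for differences that were not called. For WT day 4 against WT day 1, quantile normalization gave -0.11 for Cyp24a1 1418866_at and -0.030 for Slc8a1 1425817_a_at, and leaving out an array gave -0.59 to 1.36 and -0.85 to 1.91 for these and -0.22 to 2.93 for Vdr 1418175_at. Between genotypes S100g was 0.032 after quantile normalization and 0.085 after centring and Calb1 1448738_at 0.14 after centring; without an array Calb1 1456934_at ranged over -0.64 to 0.040, Calb1 1448738_at over -0.52 to 0.26 and Atp2b1 1452969_at over -0.10 to 0.26. For heterozygous against WT day 1, Vdr 1418176_at was 0.13 after quantile normalization and 0.017 after centring, and Cyp24a1 1418867_at 0.11 and 0.0032; without an array they ranged over -0.64 to 0.55 and -1.35 to 1.24, Vdr 1418175_at over -2.69 to 0.47, Slc8a1 1420210_at over -2.04 to 0.27, Calb2 over -0.13 to 1.85 and Atp2b1 1452969_at over -0.37 to 0.030 (0.0075 without array 281). Low signal over background limits what Vdr, Cyp24a1, Slc8a1 and Calb2 can show.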
